A study of Homo sapiens with 16 samples.

Results

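DOC and vehicle were compared in 8 arrays of HEK293, a line of transformed human kidney cells, here carrying an expression plasmid for the mineralocorticoid receptor (MR) and given no phorbol ester. The 4 DOC arrays and the 4 vehicle arrays were chosen by their titles and treatment labels alone, out of 16 arrays in all. The labels give the abbreviation DOC, which in mineralocorticoid research stands for deoxycorticosterone, a natural steroid that binds this receptor. Cells of every group had been transfected with 500 ng of MR plasmid per well for 24 h before a 4 h treatment. The DOC group received DOC at 100 nM and the control group received vehicle. The other 8 arrays held 4 samples with DOC at 100 nM plus PMA, a phorbol ester, at 10 nM and 4 samples with PMA alone at 10 nM. Their titles call each array a biological replicate. The receptor came from a plasmid in a transformed line, and no group without the plasmid was analysed here, so a response through the plasmid's receptor and one through the cells' own steroid receptors cannot be told apart.

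The mineralocorticoid receptor, encoded by NR3C2, is a ligand-activated transcription factor of the steroid receptor family that is held by chaperones in the cytoplasm until a steroid binds. It then enters the nucleus and acts on DNA elements that it shares with the glucocorticoid receptor, NR3C1. In the distal nephron it is best known for raising sodium reabsorption, in part through the kinase SGK1, and in other tissues it has been studied for its part in inflammation. By its title, the study asked about MR action on inflammatory AP-1 transcription, and the DOC and vehicle groups show the steroid's effect without a stimulus of AP-1.

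The values were log2 signals from a microarray, normalised by the authors with robust multi-array averaging (RMA), so differences are log2 fold changes. Each of 12495 genes was represented by 1 probe set, and a gene passed the test at an adjusted p under 0.05 (limma, two-sided, Benjamini-Hochberg over all 12495 genes). Differences are DOC minus vehicle, given with their standard error (SE). Arrays of the DOC group correlated with each other at 0.992 to 0.997 and those of the vehicle group at 0.994 to 0.996, against 0.991 to 0.997 between the groups. DOC replicate 1 lay farther from its group mean than the other DOC arrays, with a root mean square deviation of 0.172 against 0.105 to 0.114. It was the highest of the 4 DOC arrays in 44.6% of all genes. Values without it are given beside the calls that it made or ended, and beside some other differences that it moved by over 1.5 times.

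The markers of the cell line were in place. All 7 genes listed for HEK293 cells, which include the vimentin gene VIM and the keratin genes KRT8 and KRT18, were detected, with group means over the DOC and vehicle arrays above the lowest array median (4.91), and none of them passed the test. Few markers of other cell types were bright enough to be tested, namely 2 of 8 for leukocytes, 5 of 8 for endothelium, 2 of 8 for fibroblasts and 4 of 8 for kidney tubule, and none of these passed. The endothelial genes had a median difference of 0.17, and 4 of the 5 lay below the lowest array median. PECAM1, an adhesion molecule of endothelium, was at 4.26, 4.25, 4.39 and 4.30 on the DOC arrays and at 4.20, 3.82, 3.86 and 4.02 on the vehicle arrays, a difference of 0.32 ± 0.08 (adjusted p = 0.325). The sum of the 5 endothelial signals ran from 134 to 139 on the DOC arrays and from 119 to 136 on the vehicle arrays, on a linear scale. Its part in any result was not tested.

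DOC raised a small set of genes and no gene passed as lower. In all, 15 genes rose, which is 0.12% of the genes tested, and their differences ran from 0.47 for ZNF189 to 1.92 for PDK4. Without adjustment, 386 genes (3.09%) had p under 0.05, fewer than the 625 expected by chance at that level. The median difference over all genes was 0.01, the 5th percentile was -0.13 and the 95th percentile was 0.17. A difference of 0.5 or more upwards was found in 23 genes and one of that size downwards in 0. At 1 or more, the only genes were PDK4, S1PR3 and PHACTR3.

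**Figure D1:**
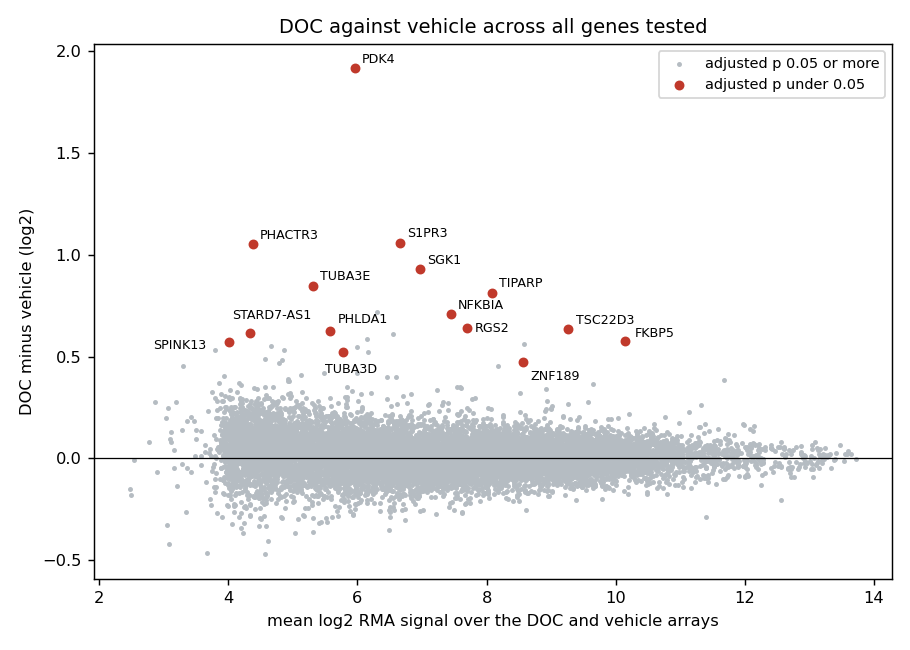
DOC minus vehicle (log2, vertical axis) against the mean log2 RMA signal over the DOC and vehicle arrays (horizontal axis) for the 12495 genes tested. Grey points are genes with an adjusted p of 0.05 or more and red points are the 15 genes under it, all of which lie above 0, with PDK4 highest at 1.92.

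In each of the 15 genes, every DOC array lay above every vehicle array. The 15 were chosen by p on these same arrays, so their separation is no independent evidence. Such a separation was found upwards in 220 genes, or 1.76% of those tested, and downwards in 71 genes, or 0.568%. The plot of the 15 genes by array shows the width of the gap in each. DOC replicate 1 was the highest DOC array in 9 of them.

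**Figure D2:**
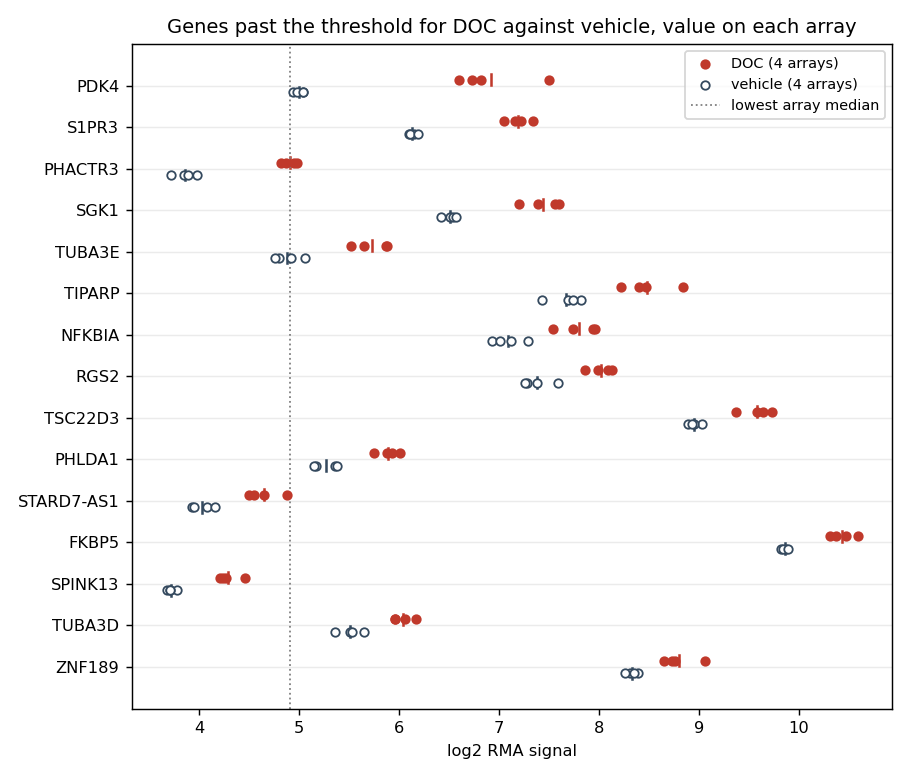
Log2 RMA signal (horizontal axis) of the 15 genes past the threshold, with 1 point per array, filled red for the 4 DOC arrays and open for the 4 vehicle arrays. Short vertical bars are group means and the dotted line is the lowest array median (4.91). In no gene do the 2 groups overlap.

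The gene that rose most was PDK4, a kinase that switches off the pyruvate dehydrogenase complex and so turns cells from glucose towards fat as fuel. Its signal was 7.50, 6.73, 6.60 and 6.82 on the DOC arrays and 5.04, 4.94, 4.98 and 5.04 on the vehicle arrays. All DOC arrays lay well above all vehicle arrays, and DOC replicate 1 stood above the other 3. The difference was 1.92 ± 0.15, or 3.77-fold, with a 95% interval of 1.60 to 2.23 (adjusted p = 1.67e-06). Without DOC replicate 1 it was 1.72, still past the threshold. No other gene of the 24 tested for pyruvate and fatty acid oxidation passed. The other pyruvate dehydrogenase kinases had differences of 0.04 ± 0.08 (PDK1), 0.11 ± 0.10 (PDK2) and -0.09 ± 0.09 (PDK3), and PPARGC1A, a coactivator of fat oxidation genes, had 0.25 ± 0.13, or 0.08 without DOC replicate 1.

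SGK1, the serum and glucocorticoid regulated kinase through which aldosterone keeps sodium channels at the cell surface, rose on all 4 of its probe sets. The probe set used gave 7.60, 7.20, 7.56 and 7.39 on the DOC arrays against 6.51, 6.54, 6.57 and 6.42 on the vehicle arrays. The difference was 0.93 ± 0.08, or 1.90-fold (adjusted p = 5.61e-06), and the 4 probe sets ranged from 0.77 to 1.03. SGK1 was the only one of 14 tested genes of mineralocorticoid-controlled sodium transport to pass. WNK4 and EDN1 had the next lowest p of the list, with differences of -0.32 ± 0.12 and 0.25 ± 0.14 at dim levels (adjusted p = 0.999 for both). The sodium channel subunit SCNN1A had a difference of 0.01 ± 0.09 at a dim level (means 4.46 with DOC and 4.45 with vehicle), the ubiquitin ligase NEDD4L, which SGK1 phosphorylates, -0.09 ± 0.08, and the sodium pump subunit ATP1B1 -0.00 ± 0.07. HSD11B2, the enzyme that shields the receptor from cortisol in the nephron, had -0.02 ± 0.11 at 4.35 with DOC and 4.37 with vehicle. On every DOC and vehicle array, 5 of the 14 genes lay below the lowest array median (4.91), where array signals are compressed. The median difference of the 14 genes was 0.03, beside 0.01 over all genes.

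FKBP5, a co-chaperone that lowers the hormone affinity of steroid receptors and is itself induced by them, was already bright in vehicle. It reached 10.59, 10.37, 10.32 and 10.47 on the DOC arrays, against 9.88, 9.82, 9.85 and 9.89 on the vehicle arrays. The difference was 0.58 ± 0.08 (adjusted p = 0.00121), and its 5 probe sets that passed the filter on dim signals lay between 0.42 and 0.59. TSC22D3, which encodes the leucine zipper protein GILZ, a mediator of anti-inflammatory corticosteroid action, stood at 9.64, 9.58, 9.73 and 9.38 with DOC and at 9.03, 8.95, 8.89 and 8.93 with vehicle. It rose by 0.63 ± 0.09 (adjusted p = 0.00251), with 0.56 to 0.74 over its 3 probe sets. With the probe set of highest variance in place of the brightest, neither FKBP5 nor TSC22D3 passed, and TSC22D3 did not pass with the mean of its kept probe sets either, although all kept probe sets of both genes were higher with DOC.

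RGS2, which shortens signals from Gq-coupled receptors by speeding GTP hydrolysis, had 8.13, 7.86, 8.09 and 7.99 on the DOC arrays and 7.28, 7.26, 7.38 and 7.60 on the vehicle arrays. It rose by 0.64 ± 0.08 (adjusted p = 0.000883), and was the only one of 12 tested RGS genes to pass. RGS16, of the same family, had the most negative difference of all genes, -0.47 ± 0.13, and all its DOC arrays lay below all its vehicle arrays, but its adjusted p was 0.556. TIPARP, an ADP-ribosyltransferase that represses the aryl hydrocarbon receptor, was at 8.84, 8.22, 8.47 and 8.40 with DOC, against 7.82, 7.43, 7.69 and 7.74 with vehicle. It rose by 0.81 ± 0.11 (adjusted p = 0.000897), and its second, dimmer probe set gave 0.50 and did not pass when used in its place. None of the other 12 genes tested of the aryl hydrocarbon receptor and ADP-ribosylation list passed, and CYP1A1 and AHR had differences of -0.14 ± 0.10 and 0.07 ± 0.09.

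NFKBIA, the inhibitor that holds NF-kB in the cytoplasm, had 7.95, 7.54, 7.74 and 7.96 on the DOC arrays and 7.12, 7.29, 6.93 and 7.01 on the vehicle arrays. Its difference was 0.71 ± 0.12 (adjusted p = 0.0139), and 3 probe sets gave 0.71 to 0.84. The call was lost when DOC replicate 1, DOC replicate 4, vehicle replicate 3 or vehicle replicate 4 was left out, with an adjusted p of at most 0.0879 and a difference of at least 0.65. TNFAIP3, a ubiquitin-editing enzyme that also restrains NF-kB, had as large a difference, 0.72 ± 0.15, and did not pass (adjusted p = 0.137). Its arrays were at 6.97, 6.38, 6.65 and 6.63 with DOC and at 6.10, 5.62, 6.01 and 6.02 with vehicle. No other gene of the 16 tested in the NF-kB list passed, and the median of the list was 0.00.

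These 7 genes (PDK4, SGK1, RGS2, TIPARP, FKBP5, TSC22D3 and NFKBIA) were the members that passed of a list of 36 tested genes known to be induced by corticosteroids in various cells. The list was drawn up with results of these data known, so neither its counts nor their direction are independent evidence. Of the 36, 7 passed as higher, where 0.12% of all genes tested did, and 0 passed as lower. A difference above 0 was found in 30, beside 57.4% of all genes, and 14 were fully separated upwards, beside 1.76% of all genes. Their median difference was 0.18, against 0.01 for all genes. Other well-known targets did not pass. The transcriptional repressor BCL6 had 0.59 ± 0.13 (adjusted p = 0.140), the zinc finger factor KLF15 0.47 ± 0.10 (adjusted p = 0.170) and the clock gene PER1 0.55 ± 0.14 (adjusted p = 0.380). BCL6 passed in the fit of the 8 arrays alone (adjusted p = 0.0291), with the mean of its kept probe sets (adjusted p = 0.0441) and with array weights (adjusted p = 0.0210). The phosphatase gene DUSP1, often cited as a corticosteroid target, had 0.12 ± 0.07, and the stress-response gene DDIT4 -0.19 ± 0.10.

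**Figure D3:**
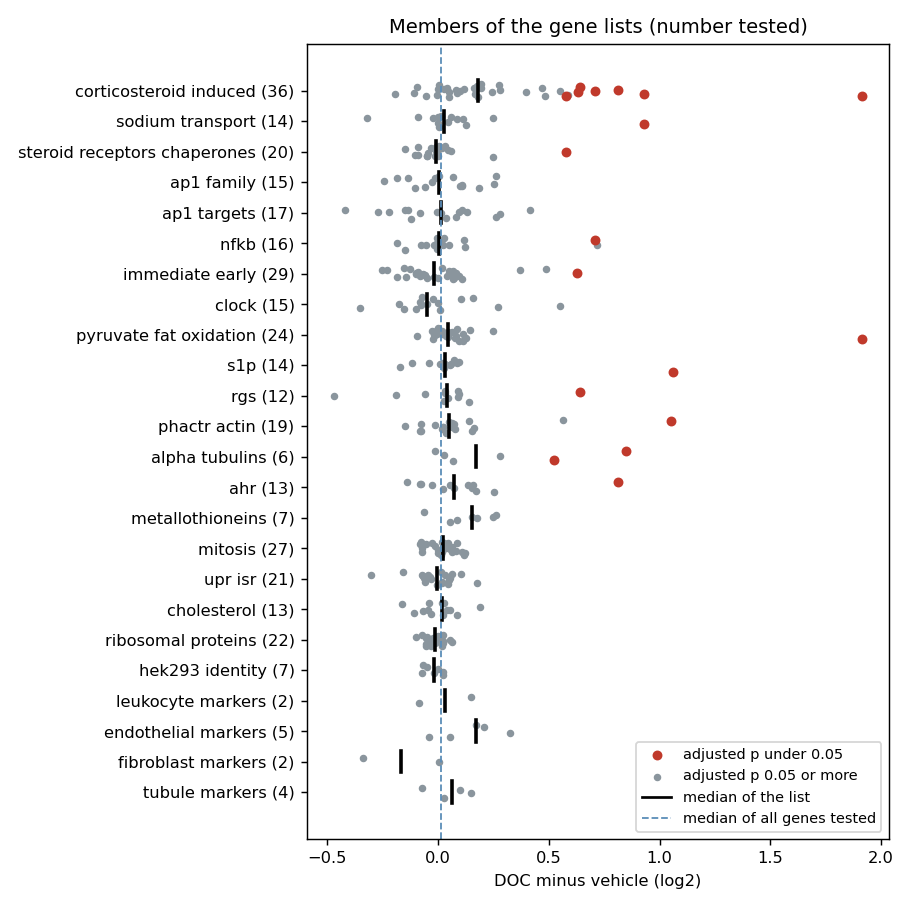
DOC minus vehicle (log2, horizontal axis) of the tested members of 24 gene lists, with the number tested in brackets. Red points passed the threshold, black bars are list medians and the dashed line is the median of all genes tested (0.01). The corticosteroid list holds 7 of the red points, and the medians of most other lists lie near the dashed line. A gene in several lists appears in each.

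The other 8 genes lay outside the corticosteroid list. S1PR3, a G protein-coupled receptor for the lipid sphingosine 1-phosphate, had the lowest p of all genes. It was at 7.34, 7.16, 7.05 and 7.22 on the DOC arrays and at 6.10, 6.15, 6.10 and 6.19 on the vehicle arrays, with narrow spread in both groups (SD 0.124 and 0.0416). The difference was 1.06 ± 0.08, or 2.08-fold, with a 95% interval of 0.89 to 1.23 (adjusted p = 1.67e-06). None of the other 13 genes tested for sphingosine 1-phosphate receptors, transport and metabolism passed. The receptors S1PR1 and S1PR2 had differences of 0.02 ± 0.16 and 0.01 ± 0.08, and the kinase SPHK1, which makes the ligand, 0.03 ± 0.09.

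PHACTR3, a protein that binds actin and protein phosphatase 1, lay among the dim probe sets. It had 4.95, 4.82, 4.87 and 4.98 on the DOC arrays and 3.84, 3.88, 3.98 and 3.72 on the vehicle arrays. The groups were far apart relative to their spread, and the difference was 1.05 ± 0.10 (adjusted p = 1.08e-05). The vehicle mean of PHACTR3, and that of TUBA3E, SPINK13 and STARD7-AS1, lay below the lowest array median, where fold changes can be understated. The filter on dim signals asked for 4 or more arrays, which arrays with DOC alone could supply. A rise with DOC could thus itself bring a dim gene into the test. With no filter on dim probe sets PHACTR3, TUBA3E, SPINK13 and STARD7-AS1 still passed, and of the genes that rose only ZNF189 was lost. Of 19 tested genes of the PHACTR and actin-regulated list, PHACTR3 was the only one to pass. CCN2, a matrix protein that responds to actin state, had 9.58, 8.54, 8.79 and 8.54 with DOC and 8.85, 7.93, 8.32 and 8.10 with vehicle, groups that overlapped, and a difference of 0.56 ± 0.20 (adjusted p = 0.999), or 0.32 without DOC replicate 1.

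Both alpha-tubulin genes that rose belong to the closely related TUBA3 group. TUBA3E was at 5.87, 5.65, 5.88 and 5.52 on the DOC arrays and at 4.80, 4.76, 5.05 and 4.92 on the vehicle arrays, a difference of 0.85 ± 0.09 (adjusted p = 0.000117). TUBA3D was at 6.16, 6.06, 5.96 and 5.96 with DOC and at 5.65, 5.51, 5.53 and 5.36 with vehicle, a difference of 0.52 ± 0.08 (adjusted p = 0.00646). The third member, TUBA3C, was also separated, with 0.28 ± 0.09, and did not pass (adjusted p = 0.806). The probe sets of all 3 are of the class that the array's maker marks as open to cross-hybridisation, so they cannot say which TUBA3 gene rose. The major alpha-tubulins TUBA1A and TUBA1C had differences of 0.03 ± 0.08 and 0.07 ± 0.09.

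PHLDA1, a small pleckstrin homology-like protein that growth factors and phorbol esters induce, had 6.01, 5.93, 5.75 and 5.88 on the DOC arrays and 5.36, 5.17, 5.38 and 5.15 on the vehicle arrays. It rose by 0.63 ± 0.09 (adjusted p = 0.00249), and its 4 probe sets lay between 0.61 and 0.77. It was the only one of 29 tested immediate early and growth factor feedback genes to pass. The median of that list was -0.02, and EGR1, a zinc finger factor of the class, had -0.14 ± 0.13. ID1, an inhibitor of basic helix-loop-helix factors, was lower on every DOC array than on any vehicle array, with -0.25 ± 0.07 (adjusted p = 0.545).

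The last 3 genes were nearest to the threshold. ZNF189, a zinc finger gene, had 9.06, 8.76, 8.74 and 8.65 with DOC and 8.39, 8.31, 8.27 and 8.36 with vehicle, a difference of 0.47 ± 0.09 (adjusted p = 0.0460). SPINK13, a Kazal-type protease inhibitor, had 4.20, 4.46, 4.26 and 4.23 with DOC and 3.77, 3.67, 3.71 and 3.71 with vehicle, a difference of 0.57 ± 0.10 (adjusted p = 0.0139). STARD7-AS1, a long non-coding RNA antisense to STARD7, had 4.50, 4.55, 4.88 and 4.64 with DOC and 4.08, 3.93, 3.94 and 4.16 with vehicle, a difference of 0.62 ± 0.11 (adjusted p = 0.0290). ZNF189 and STARD7-AS1 passed in only 8 of 20 and 8 of 19 other settings, and SPINK13 in 14 of 19. With 1 array left out, ZNF189 passed only without DOC replicate 4 (differences 0.38 to 0.52, adjusted p up to 0.209) and STARD7-AS1 only without DOC replicate 1 (0.54 to 0.66, adjusted p up to 0.169). SPINK13 was lost without DOC replicate 2 or vehicle replicates 2, 3 or 4 (0.52 to 0.60, adjusted p up to 0.0837). A second STARD7-AS1 probe set, too dim to be kept, differed by -0.14.

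The AP-1 genes named in the title of the series did not pass without phorbol ester. Of 15 tested genes for AP-1 subunits and partners, 0 passed in either direction, 8 had a difference above 0, and the median was 0.00. FOS was at 4.44, 4.22, 4.33 and 4.15 on the DOC arrays and at 4.61, 4.0, 4.63 and 4.64 on the vehicle arrays, a difference of -0.18 ± 0.11 with a 95% interval of -0.42 to 0.05. Vehicle replicate 2 lay apart from the other 3, and without it the difference was -0.34 (adjusted p = 0.186). All 4 kept FOS probe sets were lower with DOC, from -0.47 to -0.06. JUNB had 0.26 ± 0.15, or 0.11 without vehicle replicate 4, its lowest array. The difference was 0.00 ± 0.07 for JUN and -0.24 ± 0.13 for FOSL1. Among 17 tested inflammatory and matrix targets of AP-1, 0 passed and the median was 0.01. On every DOC and vehicle array, 6 of the 15 AP-1 genes, FOS among them, and 10 of these 17 lay below the lowest array median. PLAUR, the urokinase receptor, was fully separated, with 6.34, 6.23, 6.20 and 6.0 on the DOC arrays and 6.0, 5.89, 5.75 and 5.47 on the vehicle arrays. Its difference was 0.42 ± 0.11 (adjusted p = 0.519), and 1 of its other probe sets differed by -0.19. The chemokine CXCL8 had 0.09 ± 0.16, and the chemokine CCL2 had the most negative difference of the list, -0.42 ± 0.19.

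The receptor genes themselves differed little. NR3C2 was at 7.34, 7.40, 7.36 and 7.43 on the DOC arrays and at 7.24, 7.47, 7.51 and 7.51 on the vehicle arrays, a difference of -0.05 ± 0.11 with a 95% interval of -0.27 to 0.17. Whether the NR3C2 probe set reads the plasmid's transcript is not known from the files. NR3C1, the glucocorticoid receptor, had a difference of -0.11 ± 0.11, and its 10 kept probe sets were all lower with DOC, from -0.23 to -0.06. Besides FKBP5, 0 of the other 19 tested receptors, chaperones and cofactors passed, and the chaperone genes HSP90AA1 and FKBP4 had -0.03 ± 0.09 and 0.00 ± 0.09.

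The lists for general cell state showed no gene past the threshold. This held for 27 mitotic and replication genes (median difference 0.02), 21 genes of the unfolded protein and integrated stress responses (-0.01), 13 of cholesterol synthesis (0.02) and 22 ribosomal protein genes (-0.01). None of 7 tested metallothioneins, zinc-binding proteins that corticosteroids can induce, passed, although 6 had a difference above 0 and their median was 0.15. MT1B was separated upwards with 0.25 ± 0.08 (adjusted p = 0.908), and MT2A had 0.17 ± 0.15. Of 15 tested clock genes 0 passed, the median being -0.05. BMAL1, the activator at the core of the clock, had 0.27 ± 0.06 (adjusted p = 0.228), although its other 2 kept probe sets gave -0.04 and 0.00, and BHLHE41, a repressor of it, -0.35 ± 0.09 (adjusted p = 0.454). BHLHE41 passed as lower without DOC replicate 1 (-0.45, adjusted p = 0.0422) and with array weights (-0.46, adjusted p = 0.0136).

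On the lower side, the gene with the lowest p was POFUT4, a fucosyltransferase. It was at 4.73, 4.90, 4.89 and 4.88 on the DOC arrays and 5.07, 5.33, 5.27 and 5.19 on the vehicle arrays. The difference was -0.37 ± 0.08 (adjusted p = 0.140), so the DOC arrays lay below the vehicle arrays without passing. The next were TOX3, a chromatin-associated HMG-box protein (-0.26 ± 0.06), PCDH10, a protocadherin (-0.40 ± 0.10), BHLHE41, and ITGA1, a collagen-binding integrin (-0.28 ± 0.08). In 4 of these 5 genes, chosen by p on the same arrays, all DOC arrays lay below all vehicle arrays, BHLHE41 being the exception. Such a separation downwards was found in 0.568% of all genes tested. The adjusted p of the 5 ran from 0.140 to 0.530.

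The 10 genes with the next lowest p after the 15 were 8 higher and 2 lower. ELL2, a factor that helps RNA polymerase II elongate, led them with 7.67, 7.81, 7.89 and 7.76 on the DOC arrays and 7.46, 7.44, 7.36 and 7.49 on the vehicle arrays, a difference of 0.35 ± 0.07 (adjusted p = 0.0969). It passed with array weights (0.39, adjusted p = 0.00540). The higher genes also included RASD1, a Ras-like protein first found as dexamethasone-induced (0.53 ± 0.12), RNF43, a ubiquitin ligase that clears Wnt receptors (0.35 ± 0.08), and RTL5, a gene derived from a retrotransposon (0.32 ± 0.07). For RNF43 the 3 kept probe sets ranged from -0.21 to 0.35, so its direction depended on the probe set. All 10, chosen by p on these same arrays, were fully separated between the groups. Over all genes tested, 1.76% were separated upwards and 0.568% downwards.

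The steroid comparison was also made in the 8 arrays with phorbol ester, DOC plus PMA against PMA, which share no array with the DOC and vehicle groups. Both comparisons came from the same limma fit over all arrays, so the SE of a gene was the same in both (0.08 for S1PR3). A gene with a low SE was favoured in both, so passing with PMA is not a fully independent test. In the PMA comparison 48 genes passed, 45 higher (0.36% of those tested) and 3 lower (0.024%). Of the 15 genes raised without PMA, 14 had a difference above 0 with PMA, 12 were fully separated upwards (2% of all genes tested were) and 10 passed (0.384% of all genes tested did). The shared genes are 66.7% of the 15 and 20.8% of the 48. The median difference of the 15 genes was 0.82 with PMA and 0.64 without, and the values without PMA are the ones that chose them. The 10 genes were S1PR3, PDK4, SGK1, PHACTR3, RGS2, TIPARP, FKBP5, TSC22D3, SPINK13 and ZNF189. Another 35 genes passed as higher in the PMA comparison and not without PMA, and 28 of these had a difference above 0 without PMA.

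**Figure D4:**
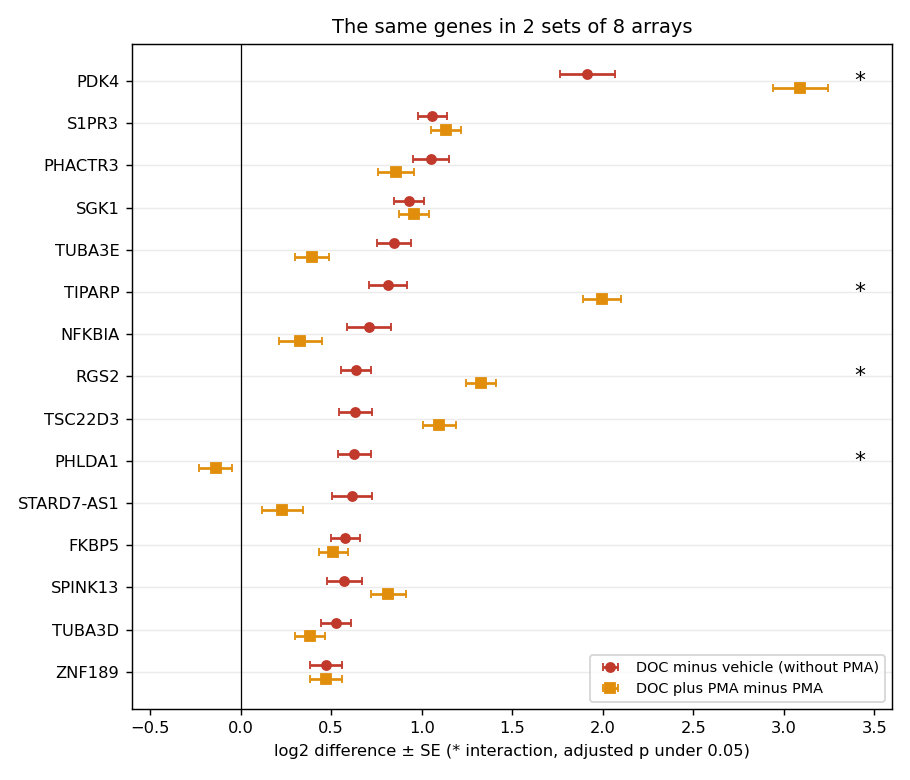
Log2 difference ± SE of the 15 genes for DOC minus vehicle (red circles) and DOC plus PMA minus PMA (orange squares). A star marks an adjusted p under 0.05 for the difference between the 2 comparisons. SGK1, S1PR3 and ZNF189 have nearly equal values in both, TIPARP and PDK4 are larger with PMA, and PHLDA1 lies just below 0 with PMA.

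Some genes responded by nearly the same amount in both settings. S1PR3 was at 7.75, 7.64, 7.49 and 7.76 on the DOC plus PMA arrays and at 6.73, 6.39, 6.50 and 6.48 on the PMA arrays, a difference of 1.13 ± 0.08. The interaction, the difference with PMA minus that without, was 0.07 with a 95% interval of -0.17 to 0.32. For SGK1 the difference with PMA was 0.96 ± 0.08, and the interaction was 0.03 with an interval of -0.21 to 0.27. Its level was higher in both PMA groups, with 8.87, 8.86, 8.83 and 9.03 for DOC plus PMA and 7.99, 7.88, 7.88 and 8.01 for PMA. FKBP5 had 0.51 ± 0.08 and ZNF189 0.47 ± 0.09 with PMA. A p over the threshold does not show that the effects were equal.

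Over all genes, 11 passed for the interaction (0.088% of those tested), 9 above 0 (0.072%) and 2 below (0.016%), and 4 of the 15 were among them. TIPARP was at 10.13, 10.09, 9.98 and 10.09 on the DOC plus PMA arrays and at 8.14, 8.0, 8.10 and 8.06 on the PMA arrays, a difference of 2.0 ± 0.11 against 0.81 without PMA. Its interaction was 1.18 ± 0.15 (adjusted p = 0.00137), and it passed without each DOC or vehicle array in turn. RGS2 had a difference of 1.33 ± 0.08 with PMA and an interaction of 0.69 ± 0.12 (adjusted p = 0.0194), which passed in 5 of 8 such fits. PDK4 had 8.72, 8.52, 8.30 and 8.50 on the DOC plus PMA arrays and 5.69, 5.51, 5.18 and 5.30 on the PMA arrays, a difference of 3.09 ± 0.15 and an interaction of 1.18 ± 0.21 (adjusted p = 0.0381). The PDK4 call was lost without any of DOC replicates 2, 3 and 4 or of the 4 vehicle arrays. In those fits its adjusted p was at most 0.128. The call stood only without DOC replicate 1, with an interaction of 1.37 (adjusted p = 0.000194).

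PHLDA1 had the opposite sign of interaction. It was at 9.03, 9.12, 8.84 and 8.82 on the DOC plus PMA arrays and at 9.28, 9.12, 8.97 and 8.99 on the PMA arrays, groups that overlapped, with a difference of -0.14 ± 0.09. PMA against vehicle differed by 3.83 ± 0.09 in this gene. Its interaction was -0.77 ± 0.13 (adjusted p = 0.0194), and the call was lost in 4 of 8 fits that left out 1 array (without DOC replicate 2 or 4, or vehicle replicate 2 or 4). TUBA3E, TUBA3D, NFKBIA and STARD7-AS1 also did not pass with PMA, with differences of 0.39 ± 0.09, 0.38 ± 0.08, 0.33 ± 0.12 and 0.23 ± 0.11. TUBA3D was just over the threshold (adjusted p = 0.0507) and passed in 5 other settings (adjusted p 0.0219 to 0.0484), and TUBA3E (adjusted p = 0.104) passed with array weights (adjusted p = 0.0367). The interaction did not pass for any of these 4. In the corticosteroid list, 9 genes passed with PMA and 7 without. MT2A, MT1X and SLC19A2, a thiamine transporter, passed with PMA alone, with 0.73 ± 0.15, 0.55 ± 0.07 and 0.74 ± 0.09 against 0.17 ± 0.15, 0.09 ± 0.07 and 0.19 ± 0.09 without it, and their interactions did not pass.

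**Figure D5:**
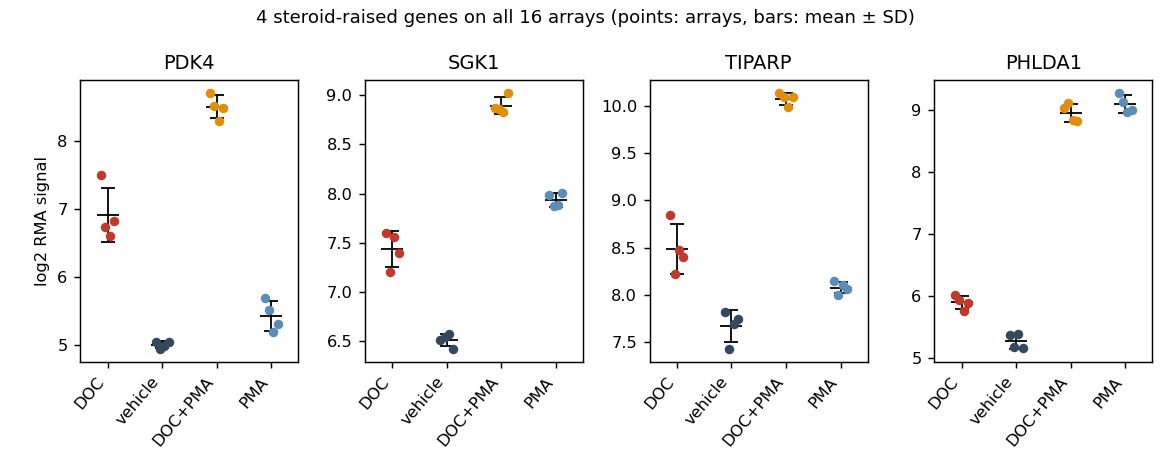
Log2 RMA signal (vertical axes, each with its own range) of PDK4, SGK1, TIPARP and PHLDA1 on all 16 arrays. Points are arrays and bars are mean ± SD of 4 arrays. PHLDA1 lies between 5.15 and 6.01 without PMA and between 8.82 and 9.28 with it, where the DOC plus PMA points overlap the PMA points.

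Across all 16 arrays, the genes whose pattern was most like that of the leading genes were found by Pearson correlation, given as a description because arrays of a group share their treatment. S1PR3 and PDK4 were each other's closest match (r = 0.976), and RASD1 was closest to SGK1 (r = 0.945). FKBP5 was the second closest to S1PR3 (r = 0.945) and TIPARP to PDK4 (r = 0.961). RHOB, a small GTPase that did not pass for DOC against vehicle, was the third closest to PDK4 (r = 0.955).

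Because the 15 genes moved together after a steroid, their promoters were read from RefSeq (GRCh38.p14) and searched for the DNA elements of steroid receptors and of AP-1. The table held 23 promoters of 14 of the 15 genes, all but PHACTR3, each with 250 bases before and 50 after a transcription start. The search covered the receptor hexamer AGAACA, the full palindromic element made of that hexamer and its inverse around a spacer, a looser palindrome with free bases in both arms, and the AP-1 site TGANTCA, on both strands. The hexamer was found in 4 of 23 promoters (17.4%), 1 each of FKBP5, PDK4, SGK1 and SPINK13. It was found in 9.76% of 15026 promoters of tested genes and in 14.8% of all 35116 promoters. The full palindrome was found in 0 of 23 promoters and in 1 of all promoters, and the looser one in 0 of 23, beside 0.286% of those of tested genes. The AP-1 site was found in 1 of 23 (SPINK13), beside 5.24% of those of tested genes. A match is a description of letters and not a bound site.

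The PDK4 promoter is shown for the gene with the largest change, as the 250 bases before its start at chr7:95596517-95596766 on the minus strand, with the hexamer, here on the opposite strand, in capitals. The hexamer begins 246 bases before the start.
PDK4: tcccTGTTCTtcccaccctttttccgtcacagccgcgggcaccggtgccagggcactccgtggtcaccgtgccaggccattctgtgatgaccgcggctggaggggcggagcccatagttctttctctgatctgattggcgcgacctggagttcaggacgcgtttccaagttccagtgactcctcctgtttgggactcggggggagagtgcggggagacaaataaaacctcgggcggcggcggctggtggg
The other matches are shown with up to 20 bases on each side and the match in capitals. They lie at chr6:134177831-134177876 (SGK1, minus strand, 1 of 3 starts), chr6:35728558-35728603 (FKBP5, minus strand, 1 of 2 starts), chr5:148268544-148268587 (SPINK13 hexamer, plus strand) and chr5:148268707-148268753 (SPINK13 AP-1 site, plus strand).
SGK1: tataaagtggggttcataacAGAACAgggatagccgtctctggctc
FKBP5: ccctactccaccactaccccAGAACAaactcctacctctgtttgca
SPINK13 hexamer: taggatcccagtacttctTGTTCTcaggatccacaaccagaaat
SPINK13 AP-1 site: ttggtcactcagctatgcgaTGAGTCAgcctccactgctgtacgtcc
The SGK1 and FKBP5 matches sit at or within a few bases of a transcription start, and those of PDK4 and SPINK13 farther upstream.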

How the data were processed

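Total RNA (100 ng per sample) was turned into biotinylated cRNA for Affymetrix PrimeView arrays, according to the labels' protocols. The deposited log2 values are RMA signals; per the submitters' processing notes the authors used Affymetrix Expression Console, with no version stated there. RMA forces all arrays to a common distribution, so a shift of all transcripts cannot be seen. Arrays have no read depth, and their number limits the precision (median SE 0.0879). The table held 49293 probe sets and 0 columns of other samples.

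Probe sets were named through the platform annotation, which gave 1 gene for 44988, several for 1832 and no name for 2473. Probe sets that reached the 40th percentile of signals on 4 or more of the 16 arrays were kept, which left 30613, of which 28226 had 1 gene. Each gene was represented by its brightest kept probe set. Group means were fitted over all 16 arrays in limma 3.58.1 (R 4.3.3) with lmFit and eBayes, with 12 residual degrees of freedom, and the fit was tested on simulated data. The genes named include those past the threshold, the next 10, the 5 lower genes with the lowest p, NR3C2, NR3C1 and the closest patterns. The 3 genes with the lowest p were also taken from each of 24 gene lists, but only some of these are named. Other genes of the lists are named for their role. The members, lists and tests were chosen with earlier results of these data known. Alternatives changed the arrays in the fit, the filter, the probe set per gene, the scaling, the prior, array weights and the replicate block, and left out each DOC or vehicle array.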

Additional observations from a re-analysis of the deposited data

Results flagged for a closer look

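In 4 of the 15 genes that rose, the difference between DOC and vehicle itself differed with PMA by the interaction term of the limma fit. The interaction (with PMA minus without) was 1.18 for PDK4, 0.69 for RGS2, 1.18 for TIPARP and -0.77 for PHLDA1. The adjusted p was 0.0381 for PDK4, 0.0194 for RGS2, 0.00137 for TIPARP and 0.0194 for PHLDA1. Without each DOC or vehicle array in turn, TIPARP passed in 8 of 8 fits, RGS2 in 5, PHLDA1 in 4 and PDK4 in 1.

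Single arrays stood apart from the other 3 of their group by Dixon's criterion in 7 of 166 groups examined, or 4.22%, and chance gives about 1 in 20. DOC replicate 1 was the low array in 3 of them, with POFUT4 at 4.73 (others 4.88 to 4.90), XBP1 at 8.46 (others 8.95 to 9.0) and FDPS at 10.10 (others 10.47 to 10.52). MT3 on DOC replicate 4 was at 3.84 (others 4.13 to 4.17), and COL1A1 on DOC replicate 3 was at 3.76 (others 4.23 to 4.25). Among the vehicle arrays, JUNB was at 4.52 on replicate 4 (others 5.07 to 5.16) and FOS at 4.00 on replicate 2 (others 4.61 to 4.64). In the 15 genes that rose, 0 groups met the criterion.

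A probe set with no gene name in the annotation was used in no comparison of genes. In a limma fit of all 30613 kept probe sets, 22 passed for DOC against vehicle and this was the only unnamed one. It was at 8.73, 8.46, 8.41 and 8.62 on the DOC arrays and at 7.83, 7.83, 7.75 and 7.74 on the vehicle arrays, a difference of 0.77. Its mean was 8.89 with DOC plus PMA and 8.21 with PMA. CHST2, a named gene outside the 15, also passed in that fit, with 0.55 ± 0.09 (adjusted p = 0.0367). In the fits of 1 value per gene, CHST2 passed with the mean of kept probe sets and with the probe set of highest variance.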

How the results depend on the processing

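The count for DOC against vehicle stayed between 11 and 18 over all settings tried, against 15 as reported. PDK4, S1PR3, SGK1, RGS2 and PHLDA1 passed in all 20 of the other settings applied to each gene, and PHACTR3 and TUBA3E in all 19 in which they were tested. All 15 kept a difference above 0 wherever tested. The weakest calls were ZNF189 and STARD7-AS1, each past in 8. Leaving out DOC replicate 1 lost NFKBIA and ZNF189, and leaving out the 3 arrays that deviated together (DOC replicate 1, PMA replicate 2 and DOC plus PMA replicate 2, chosen after seeing the data) left 11 genes, losing TUBA3D and STARD7-AS1 as well. Replicate numbers were not taken to pair DOC and vehicle arrays, whose same-number deviations correlated at 0.182, 0.182, -0.00731 and 0.244. For DOC replicates 1, 2 and 4 the closest vehicle array was that of the same number, and for DOC replicate 3 it was vehicle replicate 2. With the replicate number as a block, 16 genes passed, the 15 and TNFAIP3. In that fit 500 genes had an unadjusted p under 0.05, against 386 as reported. With array weights, DOC plus PMA against PMA gave 89 genes (48 as reported) and the interaction 25 (11 as reported). Leaving out 1 array gave 5 to 14 genes for the interaction. With the probe set of highest variance, 4 corticosteroid-induced genes passed in place of 7, and 6 genes in place of 10 passed in both DOC comparisons. The cause was not tested.

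No gene that passed changed sign for DOC against vehicle. The reversals were in genes that did not pass. With the probe set of highest variance, RNF43 was at -0.205, CXCL1 at -0.107 (the same with the 60th percentile filter), ACADM at -0.0141, MCM4 at -0.222, RPL10A at -0.0668 and RPL18 at 0.0713. With the mean of the kept probe sets, ACADM was at -0.0389, MCM4 at -0.0642 and RPL10A at -0.0020. With array weights CORO1A was at 0.0167 and COL1A1 at -0.0322, and COL1A1 was at -0.0560 with cyclic loess and -0.0040 with a common median. Without the 3 arrays, RPS9 was at 0.00709, CORO1A at 0.0616 and COL1A1 at -0.0367. With 1 array left out, RPS9 ran from -0.158 to 0.00709, KRT8 from -0.141 to 0.0297, CORO1A from -0.212 to 0.0616, COL1A1 from -0.0455 to 0.123 and the SGK1 interaction from -0.0502 to 0.0836. The SGK1 interaction was -0.128 with the probe set of highest variance.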

Other observations

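The mean of both DOC comparisons, with and without PMA, was tested for each gene as a main effect in the same limma fit, a test added after the data had been seen. It uses the DOC and vehicle arrays again. By it 51 genes passed as higher and 3 as lower, and 14 of them had passed in neither comparison alone. Of the 14, the corticosteroid list, drawn up with results of these data known, holds BCL6, KLF15, PER1 and ZBTB16. RASD1, the dexamethasone-induced Ras-like gene, had a main effect of 0.55 ± 0.09 (SE; adjusted p = 0.00309), with means of 4.06 in DOC and 3.53 in vehicle, and of 5.06 in DOC plus PMA and 4.49 in PMA. KLF15 had 0.44 ± 0.07, BCL6 0.54 ± 0.09, PER1 0.54 ± 0.10 and ZBTB16, a zinc finger factor, 0.38 ± 0.08. F3, the gene of coagulation tissue factor, had 0.61 ± 0.10 (adjusted p = 0.00588), with means of 6.85 in DOC and 6.24 in vehicle, and of 11.2 in DOC plus PMA and 10.6 in PMA.

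The others included GHR, the growth hormone receptor (0.45 ± 0.07), SNAI2, a repressor of epithelial genes (0.30 ± 0.06), PDLIM1 (0.29 ± 0.05), PPM1H (0.27 ± 0.06) and ELK1 (0.25 ± 0.05). PCDH10 (-0.36 ± 0.07) and ARL14 (-0.42 ± 0.08) were lower. ARL14 was at 2.89 in DOC and 3.21 in vehicle, below the lowest array median (4.91), where array signals are compressed. Its means were 8.69 in DOC plus PMA and 9.20 in PMA. PCDH10, at 4.41 in DOC and 4.82 in vehicle, was also among the 5 lower genes with the lowest p for DOC against vehicle.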
